A study of Caenorhabditis elegans with 16 samples.

Results

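Small RNAs in immunoprecipitates (IPs) of NRDE-3 from Caenorhabditis elegans larvae that lack both the exonuclease ERI-1 and the poly(U) polymerase CDE-1 were compared with those of larvae that lack ERI-1 alone. The members are the 2 libraries of 16 samples in the series that the labels call NRDE3 IP at the L3 stage, and the comparison covers antisense reads on every annotated RNA outside class rRNA. Both groups carried the allele eri-1(mg366) and the transgene GFP::NRDE-3, which is driven by the nrde-3 promoter, and the double mutant carried the allele cde-1(tm936) as well. The title of the double mutant library writes the cde-1 allele as tm939, while its genotype label has tm936. Both were third-stage larvae kept at 20 °C on RNAi plates with HT115 bacteria, for which no RNAi target is named, and both IPs used the anti-FLAG M2 antibody. Each genotype has 1 library, so no difference below has a replicate check, and no test or p-value was possible. Intervals are exact at the 95% level and cover counting error only, since the reads carry no molecular identifiers.

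NRDE-3 is an Argonaute protein that works in somatic nuclei of the worm: it binds secondary small interfering RNAs, which RNA-dependent RNA polymerases copy from a target RNA and which are therefore antisense to it, and carries them to nascent transcripts. ERI-1 is needed for a class of endogenous small RNAs that NRDE-3 binds in wild-type animals, so an eri-1 background leaves NRDE-3 open to other small RNAs. CDE-1, also named CID-1 or PUP-1, adds uridines to the 3′ ends of RNAs. The structural RNAs described here work in the spliceosome (snRNAs), in trans-splicing (splice leader and SmY RNAs), in rRNA modification (snoRNAs) and in translation (tRNAs).

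The control library held 8470607 counted reads and the double mutant library 9919222, of which 5172284 and 4929104 lay outside class rRNA. Counts are given below as reads, or as reads per 1000000 of these reads outside rRNA (RPM), so that 3 reads, the upper limit that a count of 0 allows, stand for 0.580 RPM in the control library and 0.609 RPM in the other. Both libraries differed from the other IPs of the series in their strand balance: antisense reads made up 12.6% (control) and 21.2% (double mutant) of the reads outside rRNA, against 72.5% to 91.3% in the 6 other Argonaute IPs and 19.2% and 20.2% in the 2 libraries of total small RNA. Sense reads on protein-coding genes filled 62.6% and 51.9% of the reads outside rRNA. The RNA protocol in the labels is the same text for IPs and total RNA, apart from the stage, and no input library was analysed here, so how much of each library was bound to NRDE-3 was not tested. The read counts do not carry read length, first base or 3′ tails.

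The labels were checked on 2 points. Sense reads on cid-1, the annotation's symbol for cde-1, fell from 538 to 124, a ratio of 0.242 (0.197 to 0.295). The larval miRNAs lin-4, let-7, mir-48, mir-84 and mir-241 supplied 12.4% of control and 11.2% of double mutant sense miRNA reads, and the 8 embryonic miRNAs mir-35 to mir-42 supplied 0.331% and 0.419%. In the 2 NRDE-3 IPs of embryos the order was the opposite, with 15.2% and 19.0% for the embryonic miRNAs against 0.196% and 0.131% for the larval miRNAs. The larval miRNAs had nearly the same share in the IPs of HRDE-1, another Argonaute, from young adults. Their share therefore sets the L3 libraries apart from embryos but not from young adults. The embryonic miRNAs had a larger share in those young adult IPs than at L3. The 33 sperm marker genes (msp genes, gsp-3 and gsp-4) had 41 and 38 antisense reads in all. Sense reads on the 6 yolk genes vit-1 to vit-6 fell from 8252 to 3754, or from 1595 to 762 RPM, and the part of this in the results was not tested.

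Structural RNAs gained the most, apart from tRNA genes, whose ratio was near those of the lincRNA and miRNA classes. Antisense reads on snRNA genes went from 361 to 66709, or from 69.8 to 13534 RPM, a ratio of 194 (175 to 216). Splice leader RNA genes went from 465 to 11988 antisense reads, a ratio of 27.1 (24.7 to 29.7). The snoRNA genes went from 6285 to 64625 antisense reads, a ratio of 10.8 (10.5 to 11.07), and the tRNA genes from 1487 to 7268, a ratio of 5.13 (4.85 to 5.43). Together these 4 classes supplied 1.32% of the control antisense reads outside rRNA and 14.4% of those of the double mutant. The sense reads of the same genes, which have the strand of the RNAs themselves, moved less: their ratios were 1.10 for snRNA, 0.920 for snoRNA and 0.932 for tRNA genes, with 1.82 for splice leader genes. The snRNA value rests mainly on 1 gene, M163.13, described below. Antisense reads on 26S rRNA, which lies outside the comparison, went from 2534 to 465480 at the copy rrn-3.1, a ratio of 193 (185 to 201). Class rRNA as a whole rose far less in relative terms, from 490594 to 1059343 antisense reads. The ratio at rrn-3.1 therefore does not describe the class, which already held many antisense reads without loss of CDE-1.

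The other classes spread over a narrower range. The lincRNA and miRNA genes had antisense ratios of 4.54 and 4.11. Without genes that have an exon on the opposite strand, the miRNA ratio was 6.02, above the 5.02 of tRNA genes, and the lincRNA ratio was 1.23. Protein-coding genes, which hold most antisense reads in both libraries, went from 468312 to 663839, a ratio of 1.49 (1.48 to 1.49). Transposons went the other way, from 20989 to 8678 antisense reads, a ratio of 0.434 (0.423 to 0.445). The mitochondrial class had 12 and 9 antisense reads beside 84927 and 104883 sense reads, and the piRNA genes had 182 and 152.

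**Figure D1:**
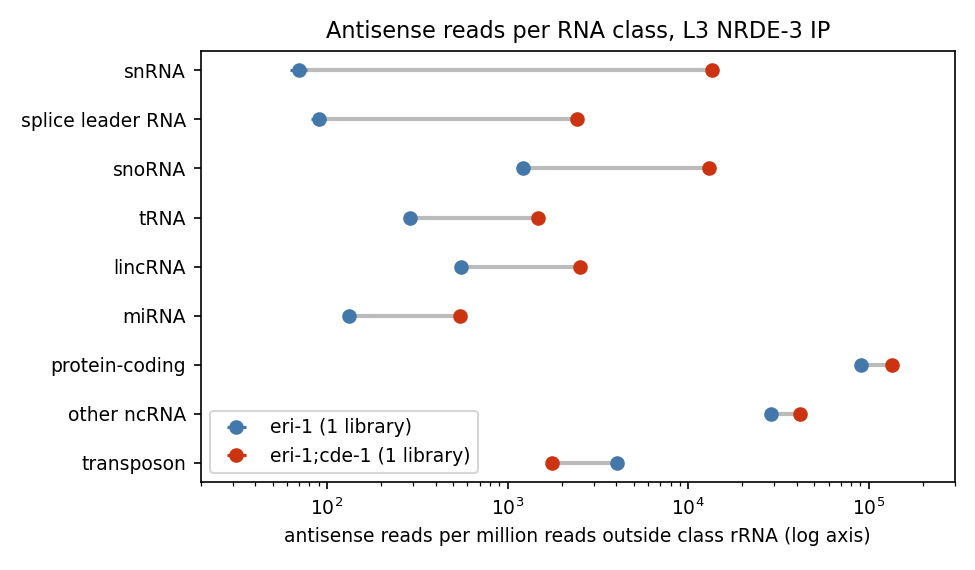
Antisense RPM (x axis, log scale) for 9 RNA classes, with the control library in blue and the double mutant library in red; bars, mostly hidden by the points, are exact 95% binomial intervals of counting error. The snRNA class spans 69.8 to 13534 RPM, while transposons are the only class shown that lies lower in the double mutant.

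Outside rRNA, 3658 genes reached 50 antisense reads in 1 of the libraries or both, and 49.6% of them were at least 2-fold higher in the double mutant, with 14.6% at least 2-fold lower. Among the 1086 genes of the 4 structural classes, 195 reached 50 reads, of which 192 were at least 2-fold higher and 0 at least 2-fold lower. Median control counts of the compared genes were 3 to 21 reads a class, so most reached the minimum only through the double mutant library. For such genes a call as higher was largely set by the minimum, here and in the counts per class below. A stricter set held genes with at most 3 control reads and at least 50 double mutant reads, called loaded only in the double mutant here. This name stands for the read counts alone: binding to NRDE-3 was not tested, and most of these genes had some control reads. The set had 122 genes, or 3.34% of all genes compared, and 79 of them were structural: 42 snRNA, 20 snoRNA, 13 splice leader and 4 tRNA genes. Copies of a gene count separately here, and control reads divided among near-identical copies could bring each copy under the limit. The 19 snRNA genes of 102 nt had 28 control reads in all with 13 genes in the set. The 11 sls-1 genes other than sls-1.12 had 25 with 10 in the set. The mirror set, with at most 3 double mutant reads and at least 50 control reads, had 3 genes (0.082%), the protein-coding genes C08F11.7 and F43G9.8 and the transposon F57G4.6.

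**Figure D2:**
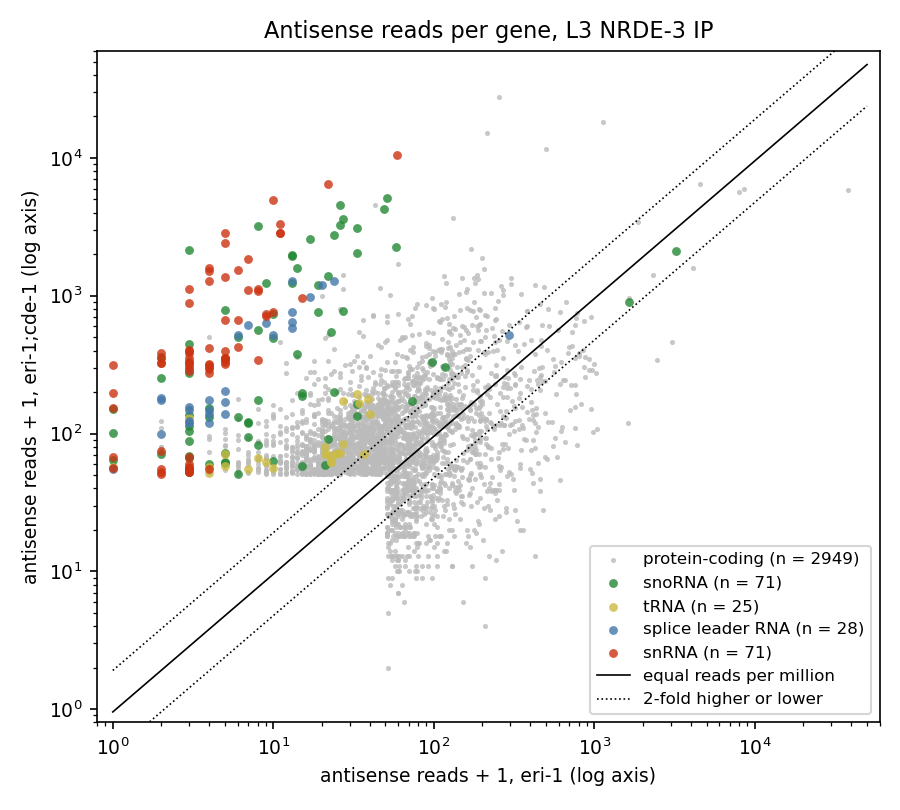
Antisense reads plus 1 per gene in the control (x axis) and the double mutant (y axis), both on log scales, for 2949 protein-coding genes (grey) and 195 structural RNA genes (colours) that reached 50 reads; lines mark equal RPM and a 2-fold difference. The snRNA genes (red) sit at the upper left, with few or no reads in the control, and the empty corner at the lower left is the read minimum.

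All 71 of the 96 snRNA genes that reached the minimum were higher in the double mutant. Their control counts ran from 0 to 58 reads with a median of 3, and their double mutant counts from 50 to 10566 with a median of 351, so the highest control count lay near the lowest double mutant count. The smallest log2 ratio was 3.85 and the median 6.77. The other 25 snRNA genes stayed under 50 reads in both libraries. Most snRNA genes exist in several near-identical copies, and reads of such copies may have been divided among them.

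Genes of equal length were therefore also summed, for the 6 lengths that at least 4 snRNA genes share. The 7 snRNA genes of 165 nt, among them sup-6 and sup-39, which encode U1 snRNA and are known from suppressor mutations, went from 67 to 24823 antisense reads, a ratio of 389 (306 to 502). The highest copy was sup-6 (chromosome II, 12944803 to 12944967, minus strand), with 21 and 6505 reads and a ratio of 325 (212 to 525). T08G5.11 (chromosome V, 14028471 to 14028635, minus strand) went from 9 to 4925 reads, a ratio of 574 (302 to 1257). F40G12.13 on chromosome V went from 4 to 2869 and sup-39 on chromosome II from 3 to 1518 reads, and the latter also has an exon opposite it. The 14 genes of 187 nt went from 37 to 4575 reads, a ratio of 130 (94.0 to 185), the 9 genes of 122 nt from 28 to 3305, a ratio of 124 (85.5 to 187), and the 4 genes of 144 nt from 25 to 2788, a ratio of 117 (79.1 to 181). The 19 genes of 102 nt were lower, with 28 and 903 reads and a ratio of 33.8 (23.3 to 51.2), an interval that does not reach those of the lengths above. The 4 genes of 105 nt had 0 and 1 antisense reads.

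For T08G5.11 and many other snRNA genes, the annotation places an ncRNA gene on the opposite strand, so a read antisense to the snRNA is also a sense read of that ncRNA. The 32 ncRNA genes opposite an snRNA exon went from 131 to 25884 sense reads, and part of the antisense snRNA signal is therefore counted under their names. Without every gene that has an exon on its opposite strand, the snRNA class kept 50 genes, which went from 224 to 40825 antisense reads, a ratio of 191 (168 to 219). Sense snRNA reads came almost entirely from the 80-nt gene M163.13, with 191959 and 200544 reads, which had 6 and 46 antisense reads. The sense ratio of the class therefore mainly describes this gene. In the length groups that had sense reads, sense ratios ran from 0.894 (165 nt) to 1.66 (102 nt).

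SmY RNAs, small nuclear RNAs of nematodes that associate with the trans-splicing machinery, included the structural gene with the most antisense reads. The 12 smy genes, which the annotation spreads over the classes snRNA, snoRNA and ncRNA, went from 157 to 26967 antisense reads, a ratio of 180 (154 to 212). The smy-1 gene (chromosome IV, 9511763 to 9511839, minus strand) went from 58 to 10566 reads, or from 11.2 to 2144 RPM, a ratio of 191 (148 to 252). Its neighbour smy-2, classed as a snoRNA, went from 50 to 5106 reads, a ratio of 107 (81.2 to 145). On chromosome V, smy-3 went from 7 to 3202 reads, a ratio of 480 (233 to 1195). Among the rest, smy-8 had 4 and 2397 reads and smy-10 had 0 and 152, at least 53.2-fold more against a floor of 3 control reads. An exception was smy-7 (chromosome IV, 6460683 to 6460764, minus strand), with 8 antisense reads in each library and 12 against 1609 sense reads. Its increase thus lay in the opposite column, and whether its strand is annotated correctly was not tested.

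Splice leader RNAs donate a short leader to the 5′ ends of many worm mRNAs. All but 1 of the 28 compared genes of the 30 annotated were at least 2-fold higher in the double mutant. The 18 sls-2 genes, which encode the SL2 type used for downstream genes of operons, went from 146 to 9880 antisense reads, a ratio of 71.0 (60.3 to 84.2). The highest were sls-2.10 (chromosome IV, 9130721 to 9130829, minus strand) with 12 and 1288 reads, sls-2.11 with 23 and 1287, and sls-2.9 with 19 and 1191. The sls-1 genes, which encode SL1, stand in a repeated array, and their copies had nearly the same counts. Without sls-1.12, the 11 sls-1 genes went from 25 to 1594 antisense reads, a ratio of 66.9 (45.2 to 104), with 1 to 4 control reads and 99 to 179 double mutant reads a gene, and their sense reads went from 2235 to 3999, a ratio of 1.88.

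The sls-1.12 gene lies in the same array on the plus strand, while sls-1.6 and its like lie on the minus strand. It had 294 and 514 antisense reads beside 5 and 232 sense reads, so that its columns looked exchanged relative to the other copies. It alone held most control antisense reads of the class, and the class ratio without it was 70.4 (60.5 to 82.4) instead of 27.1.

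Among the 345 snoRNA genes, 71 were compared, and 69 of these were at least 2-fold higher. Their control counts had a median of 9 reads and their double mutant counts a median of 251. F25H2.15 (chromosome I, 10565266 to 10565443, plus strand) went from 25 to 4556 antisense reads, a ratio of 191 (129 to 296), beside 1093 and 1050 sense reads. Y48A6C.10 on chromosome III went from 48 to 4228 reads, a ratio of 92.4 (69.6 to 126), and F59C6.15 on chromosome I from 26 to 3577. F19G12.14 on chromosome X had 2 and 2163 antisense reads, a ratio of 1135 (314 to 9377), a wide interval that reflects the 2 control reads.

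The 2 compared snoRNA genes outside this pattern were K07C10.2, with 3214 and 2119 antisense reads, and B0334.12, with 1644 and 898. They supplied 77.3% of the control antisense reads of the class. K07C10.2 lies opposite the ncRNA K07C10.6. Without both, the class ratio was 45.3 instead of 10.8.

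**Figure D3:**
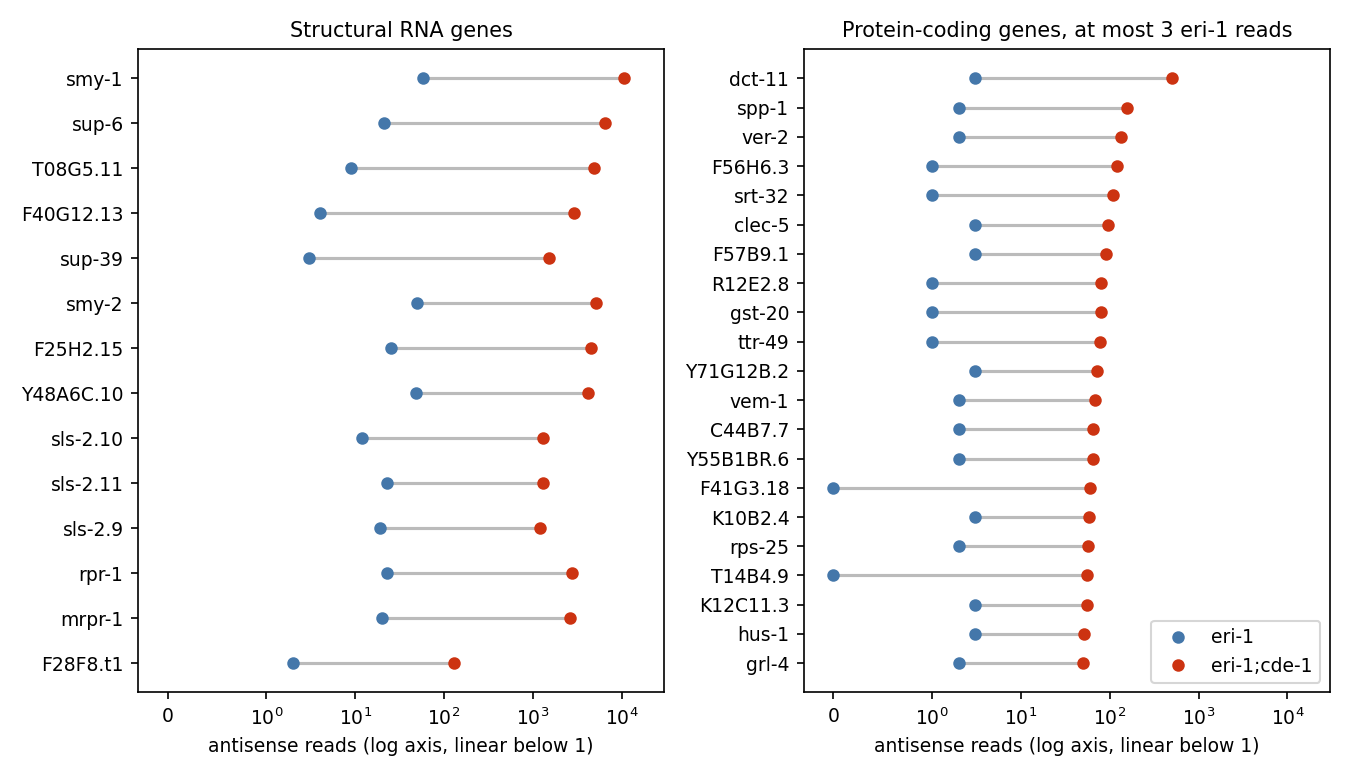
Antisense reads per gene (x axis, log scale, linear below 1) in the control (blue) and the double mutant (red), with 14 structural RNA genes on the left and the 21 protein-coding genes with at most 3 control reads on the right; each point is 1 library. The structural genes reach 129 to 10566 reads in the double mutant and the protein-coding genes 50 to 504.

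Transfer RNA genes changed least of the 4 structural classes. Only 25 of 615 reached 50 reads, all 25 were at least 2-fold higher, and their highest count was 193 reads. None of the 25 had more than 39 control reads, so all of them passed the minimum through the double mutant, which favours a call as higher. F35A5.t1 went from 32 to 193 antisense reads, a ratio of 6.33 (4.34 to 9.51), T25E4.t1 from 38 to 178 and R04D3.t2 from 26 to 172. F35A5.t1, T25E4.t1 and T28B4.t1 have an annotated gene on the opposite strand. Of the 4 tRNA genes with at most 3 control reads, F28F8.t1 had 2 and 129 reads, and T28B4.t1 had 0 and 56, at least 19.6-fold more against a floor of 3 control reads.

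The annotation files further structural RNAs under ncRNA, and these were higher in the double mutant too. RNase P RNA, the catalytic RNA that trims tRNA precursors, is encoded by rpr-1 (chromosome I, 13463955 to 13464207, plus strand), which went from 23 to 2772 antisense reads, a ratio of 126 (84.1 to 200). RNase MRP RNA, which takes part in rRNA processing, is encoded by mrpr-1 on chromosome II, which went from 20 to 2647 reads, a ratio of 139 (89.7 to 228). Sense reads on rpr-1 were 1558 and 1329, and on mrpr-1 314 and 503. The signal recognition particle RNA genes srpr-2.2 and srpr-2.1 rose less, from 564 to 2046 antisense reads, a ratio of 3.81 (3.47 to 4.19), and from 184 to 1083, a ratio of 6.18 (5.28 to 7.26). F39D8.7 on chromosome X, for which no role is given here, went from 107 to 3575 reads, a ratio of 35.1 (28.9 to 42.9).

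The ncRNA class as a whole hides these genes. Its 3 highest genes in the double mutant were T09B4.14, with 11634 and 18277 antisense reads, K01F9.6, with 6274 and 10188, and F16A11.6, with 7794 and 7839. They lie opposite mir-1, mir-80 and mir-71, so reads of these miRNAs are counted as their antisense reads. Of the 406 ncRNA genes compared, 319 have an exon on the opposite strand, and the class ratio was 1.45 (1.44 to 1.46) with them and 5.07 (4.96 to 5.18) without them.

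In the lincRNA class, 10 of 15 compared genes were at least 2-fold higher and 3 at least 2-fold lower. The gene linc-169 on chromosome II went from 517 to 8667 antisense reads and held 69.8% of the double mutant reads of the class. Its exon overlaps mtch-1, which encodes a mitochondrial carrier, on the opposite strand, and mtch-1 went from 1165 to 9535 sense reads, so the reads of both genes cannot be told apart. The next gene, linc-22, went from 377 to 1307 reads, and linc-29 from 715 to 286. Without linc-169 the class ratio was 1.67 instead of 4.54.

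Transposon genes mostly lost antisense reads. Of 85 compared, 53 were at least 2-fold lower and 5 at least 2-fold higher, with a median log2 ratio of -1.29. Y60A3A.27, the highest in the double mutant, had 919 control and 704 double mutant reads, T27C5.9 had 1433 and 589, and ZC132.5 had 185 and 453.

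Of 20535 protein-coding genes, 2949 reached 50 antisense reads. At least 2-fold higher in the double mutant were 1492 (50.6%), and at least 2-fold lower 458 (15.5%), with a median log2 ratio of 1.02. That median is itself a shift of the compared genes: measured from it, 569 genes were at least 2-fold higher and 853 at least 2-fold lower. The shift depended on the read minimum, with a median log2 ratio of 0.61 over genes with at least 10 reads and 0.33 with no minimum. The share of higher genes among those called was 76.5% on the RPM scale, 63.7% with TMM scaling over antisense counts, 66.0% with the median of ratios, and 66.2% when sense reads on protein-coding genes were left out of the denominator. Sense reads on protein-coding genes showed no such shift, with a median log2 ratio of -0.31 over 7838 genes, 1.06% at least 2-fold higher and 6.3% at least 2-fold lower. The antisense reads were spread thinly: the 50 highest genes of each library held 23.05% of them in the control library and 23.4% in the other.

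Loaded only in the double mutant, with at most 3 control reads, were 21 protein-coding genes, 0.712% of those compared, and 0.0678% met the mirror criterion. The clearest was dct-11 (chromosome X, 5838039 to 5839778, minus strand), with 3 control and 504 double mutant antisense reads, or 0.580 and 102 RPM, a ratio of 176 (59.98 to 858). The next 3 were spp-1, which encodes a saposin-like antimicrobial protein, with 2 and 156 reads, ver-2, which encodes a receptor tyrosine kinase of the vascular endothelial growth factor type, with 2 and 133, and F56H6.3 with 1 and 122. They were followed by the chemoreceptor gene srt-32 with 1 and 109 reads, the C-type lectin gene clec-5 with 3 and 95, F57B9.1 with 3 and 91, R12E2.8 and the glutathione S-transferase gene gst-20 with 1 and 79 each, and the transthyretin-like gene ttr-49 with 1 and 78. These counts are small, and the ratio of ttr-49, for example, was 81.9 with an interval from 14.3 to 3274.

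The other 11 genes of this set had 50 to 72 double mutant reads, among them rps-25, a ribosomal protein gene, with 2 and 57, and hus-1, a DNA damage checkpoint gene, with 3 and 51. Just outside it were 9 genes with at most 3 control reads and 40 to 49 double mutant reads, and 22 genes with 4 or 5 control reads. F41G3.18 and T14B4.9 had 0 control reads beside 60 and 56, which is at least 21.0-fold and 19.6-fold higher against 3 control reads. Exons on the opposite strand overlap spp-1, Y71G12B.2 and F41G3.18, and F56H6.3 has no position in the annotation used.

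Above a minimum of 200 reads, the 4 largest rises were at dct-11, F23A7.4, C33A12.3 and F23A7.8. F23A7.4 and F23A7.8 are neighbours on the plus strand of chromosome X (16212606 to 16212812 and 16213373 to 16213576) with 560 nt between them. F23A7.4 went from 255 to 27924 antisense reads, or from 49.3 to 5665 RPM, a ratio of 115 (102 to 130.5). F23A7.8 went from 215 to 15249 reads, a ratio of 74.4 (65.0 to 85.5). They held 4.21% and 2.30% of all protein-coding antisense reads in the double mutant, against 0.0545% and 0.0459% in the control.

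C33A12.3 on chromosome IV went from 42 to 4520 reads, a ratio of 113 (83.4 to 157), and smy-1 and smy-2 lie within this gene on its own strand. Further log2 ratios were 5.77 for Y106G6H.1 (26 and 1406 reads), 5.71 for F31F7.1 (19 and 998), 5.46 for C46H11.2 (10 and 462), and 5.45 for ril-2 (26 and 1120). C46H11.2 has an opposite-strand neighbour, and an exon of ril-2 overlaps the snoRNA gene C14C10.8 on the same strand. Of the 593 genes with at least 200 reads, 30 were at least 16-fold higher, and 5 had a structural RNA gene with at least 50 double mutant reads within them. Among these 5, 3 were at least 2-fold higher (C33A12.3, ril-2 and rpl-7A) and 1 was at least 2-fold lower (pyk-1, which went from 656 to 244), beside 322 higher and 142 lower of all 593.

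The 8 largest falls were from 208 to 480 control reads to 3 to 27 double mutant reads. C08F11.7 (chromosome IV, 13637275 to 13638666, plus strand) went from 208 to 3 reads, a log2 ratio of -5.64, and F15D4.6 on chromosome II from 427 to 12, a log2 ratio of -4.97. The kinesin gene osm-3, which is needed for sensory cilia, went from 357 to 19 reads, and saeg-2 from 480 to 27, and both have exons on the opposite strand. W04A8.2, also with a gene opposite it, went from 208 to 8. W09B7.2 and F07B7.2 on chromosome V have the same length and nearly the same counts, 242 and 265 reads in the control against 11 and 13, and W09B7.1 went from 343 to 19. If W09B7.2 and F07B7.2 are copies, reads may have been divided between them.

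The genes with the most antisense reads changed places. In the control the first was unc-44, which encodes an ankyrin of neurons, with 38160 reads or 8.15% of the protein-coding antisense reads, and it had 5891 reads or 0.887% in the double mutant, a ratio of 0.162 (0.158 to 0.167). Exons of other genes lie on its opposite strand. The nrde-3 gene itself, which the transgene also carries, had 8588 and 5970 antisense reads, a ratio of 0.729 (0.706 to 0.754), beside 15773 and 24337 sense reads. The neuronal gene unc-119 had 7958 and 5683 antisense reads, a ratio of 0.749 (0.724 to 0.775). Y47H10A.5 went from 4557 to 6476, Y79H2A.3 from 4110 to 1601, and let-765 from 3031 to 464.

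In the double mutant the first was F23A7.4. The second was F43E2.6, with 1127 and 18106 antisense reads, a ratio of 16.9 (15.9 to 17.9), and it was unusual in that its sense reads rose more, from 980 to 33585. It is a neighbour of mtch-1 and linc-169 on chromosome II, all 3 within positions 7366455 to 7374166. The fourth was alg-1, which encodes an Argonaute of the miRNA pathway, with 498 and 11581 antisense reads, a ratio of 24.4 (22.3 to 26.7), and nearly level sense reads of 1012 and 1116. It was followed by Y47H10A.5 and nrde-3, which were among the highest genes of the control as well.

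Gene lists were read against the median log2 ratio of 1.02 and the 50.6% of higher genes over all protein-coding genes. Histone genes, most but not all of whose mRNAs end in a stem-loop in place of a poly(A) tail, stood at the high end. Of 72 listed, 70 were compared, and 69 were at least 2-fold higher with a median log2 ratio of 2.87. Antisense reads summed over the list went from 8467 to 48992, a ratio of 6.07, while sense reads had a ratio of 0.729. The 69 genes had 17 to 301 control reads and 59 to 1871 double mutant reads: his-18 went from 45 to 1131, his-45 from 198 to 1871 and his-1 from 27 to 313. The gene below, his-24, encodes a linker histone rather than a core histone, and it fell from 758 to 350 reads, a log2 ratio of -1.04. Many core histone genes are near-identical, and reads may have been divided among them.

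Ribosomal protein genes followed, with 52 of 57 compared genes at least 2-fold higher, 0 at least 2-fold lower and a median log2 ratio of 2.07. Their counts were low: rps-27 went from 91 to 546 reads, and rps-23 from 31 to 336, while rpl-32, with 173 and 266, did not reach 2-fold. Most of the 57 had under 50 control reads and so passed the minimum only through the double mutant, which favours a call as higher. Of 9 genes for nucleolar proteins and rRNA processing, 7 were at least 2-fold higher, among them nol-56 with 18 and 106 reads and bop-1 with 16 and 87, and nol-6 was lower with 207 and 92. Of 12 germ granule genes, 8 were higher, among them glh-4, a helicase of these granules, with 241 and 814 reads.

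The small RNA pathways were covered by 6 lists. Of 15 Argonaute genes compared, 12 were at least 2-fold higher, with a median log2 ratio of 1.91. Beside alg-1 they included csr-1, an Argonaute of the germ line, with 123 and 621 reads, wago-4 with 112 and 681, and hrde-1, the germline counterpart of nrde-3, with 105 and 401. Of the 4 RNA-dependent RNA polymerase genes, rrf-1 went from 33 to 184 reads, ego-1 from 50 to 225 and rrf-3 from 36 to 154, while rrf-2 had 155 and 157. Of 9 nuclear RNAi and mutator genes 6 were higher, among them nrde-2 with 153 and 480 reads, and of 4 ERI and Dicer genes 3 were higher, among them dcr-1 with 54 and 171. The eri-1 gene had 20 and 45 antisense reads, a ratio of 2.36 (1.37 to 4.22), and cid-1 had 56 and 69, a ratio of 1.29 (0.896 to 1.87). Both compared ERGO-1 class targets were at least 2-fold higher, and of 2 poly(U) polymerase genes 1 was, pup-2 with 28 and 58 reads, with a list median of 0.73.

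The F-box, collagen, vitellogenin, MATH and nuclear hormone receptor lists had medians below 0. Of 351 F-box genes, a large and fast-evolving family of ubiquitin ligase adaptors, 20 were compared, and antisense reads summed over all 351 had a ratio of 0.604. Of the 20, 15 were at least 2-fold lower and 1 was higher, with a median log2 ratio of -1.59. Most of the 15 reached 50 reads only in the control, which favours a call as lower. Among them fbxa-149 went from 281 to 28 reads, fbxa-218, counted on its protein-coding transcripts, from 217 to 29 and fbxb-14 from 351 to 154. Of 175 cuticle collagen genes 11 were compared and 7 of these were lower, with a median of -1.72, among them col-19, an adult collagen gene, with 460 and 37 reads. All 7 reached 50 reads only in the control, and col-65 was higher with 14 and 100. Summed over all 175, the ratio was 0.752. Nuclear hormone receptor genes were divided, with 8 higher and 8 lower of 19 and a median log2 ratio of -0.53. Of 15 C-type lectin genes 11 were higher and 1 lower, with a median log2 ratio of 1.99. Of 14 MATH genes 5 were higher and 8 lower, with a median of -1.19, and of 4 vitellogenin genes 3 were lower, with a median of -1.34. Of 5 muscle structure genes and 4 tubulin genes, 1 each was lower, and 0 of 58 sperm genes reached 50 reads.

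**Figure D4:**
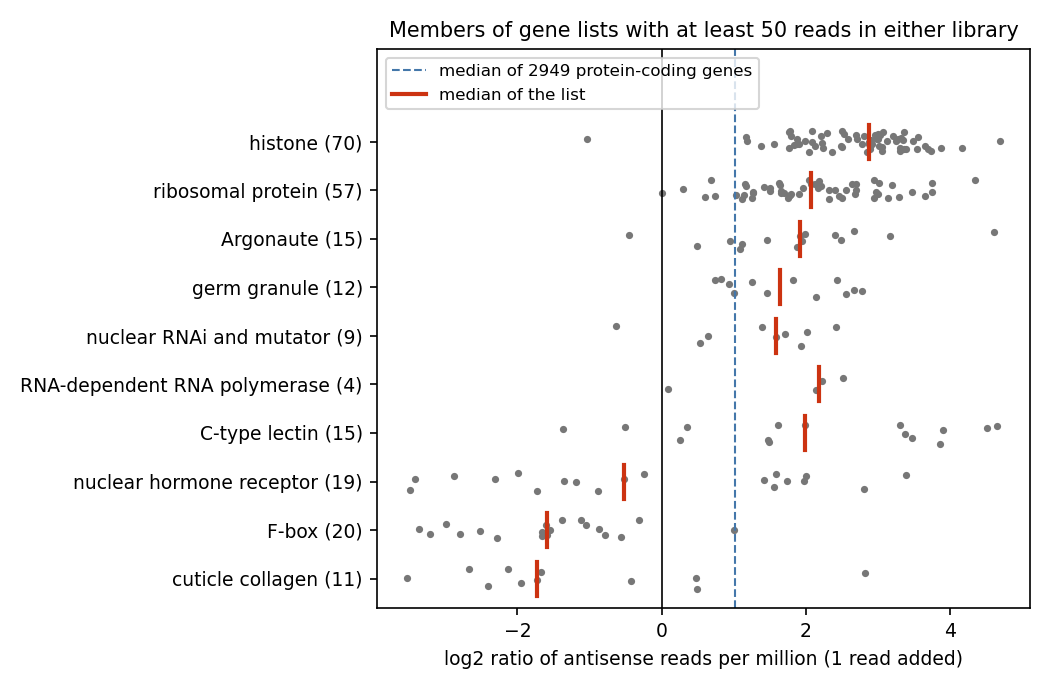
Log2 ratio of antisense RPM, double mutant over control with 1 read added (x axis), for the members of 10 gene lists that reached 50 reads (grey points, number in parentheses), with each list's median in red and the median of all 2949 protein-coding genes as a dashed blue line. Of the histone genes only his-24 lies left of 0, and most F-box and collagen genes lie left of 0.

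The same ratios were set beside those of 3 pairs that compare cde-1(tm936) with a control that has a wild-type eri-1 gene: NRDE-3 IPs of embryos, HRDE-1 IPs of young adults, and total small RNA of young adults, all on OP50 bacteria. These pairs share no library with the L3 pair but differ from it in stage, food and eri-1 background. The HRDE-1 pair also differs in the Argonaute, and the total RNA pair had no IP. Such differences cannot be told apart, and the difference between pairs was not tested. The WAGO-1 IPs with and without cde-1 in the series were used only for the strand balance above. Antisense snRNA reads had a ratio of 28.4 (22.9 to 35.8) in embryos, from 83 to 4404 reads, 5.57 (4.87 to 6.39) with HRDE-1, from 238 to 2123, and 18.3 (14.7 to 22.999) in total RNA, from 85 to 1350. Splice leader RNA had ratios of 2.04, 4.65 and 4.24 in these pairs, and of 13.6, 5.07 and 18.9 without sls-1.12. The snoRNA ratios were 1.79, 1.48 and 1.64, and 6.02, 1.76 and 2.099 without genes that have an exon on the opposite strand, a set that leaves out K07C10.2. The level in the double mutant at L3, 13534 RPM for snRNA, compared with 776, 314 and 242 RPM in the cde-1 libraries of these pairs.

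Protein-coding antisense reads had ratios of 0.984, 1.08 and 1.24 in the 3 pairs. Summed over the histone list, the ratio was 3.01 in embryos and 0.606 with HRDE-1. For the ribosomal protein list it was 0.873 and 0.735, so neither list was higher with HRDE-1. Transposons had a ratio of 1.20 in embryos, where they rose, and of 0.493 and 0.523 in the others.

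**Figure D5:**
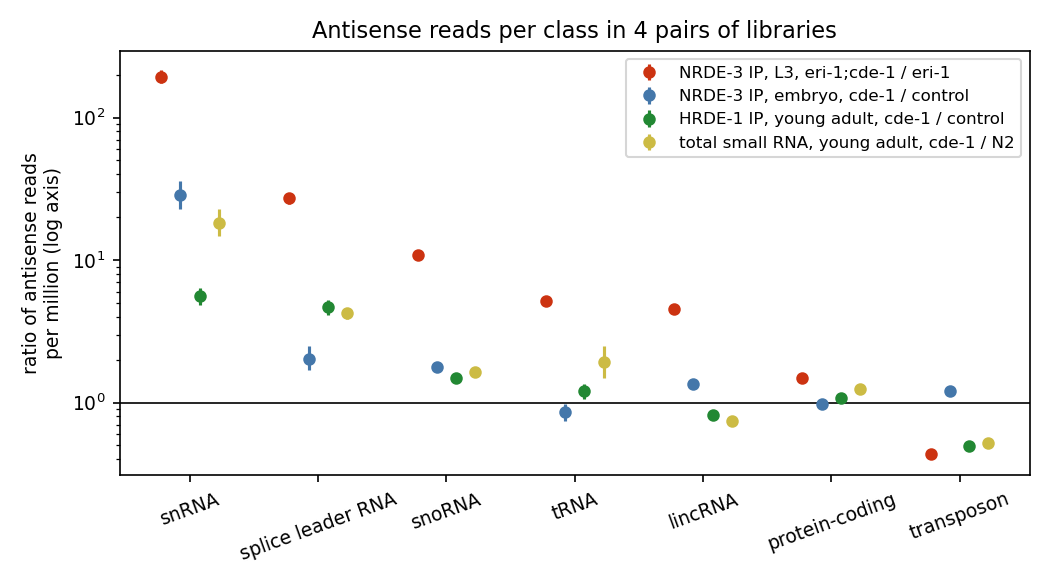
Ratio of antisense RPM in the cde-1 mutant over its control (y axis, log scale) for 7 RNA classes in 4 pairs of libraries, 1 library per genotype; bars are exact 95% intervals of counting error. The snRNA ratio is above 1 in all 4 pairs shown, from 5.57 with HRDE-1 to 194 in the L3 NRDE-3 pair, while transposons lie above 1 only in embryos.

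Single genes had these counts in the other pairs. F23A7.4 went from 327 to 38359 reads in embryos, from 358 to 2234 with HRDE-1 and from 37 to 758 in total RNA, and F23A7.8 from 173 to 24995, from 168 to 1116 and from 28 to 403. The U1 gene sup-6 went from 0 to 221, from 11 to 184 and from 2 to 98. The alg-1 gene went from 38 to 554, from 54 to 225 and from 48 to 111. Counts of dct-11 were low, with 1 and 2 reads in embryos, 1 and 1 with HRDE-1, and 10 and 30 in total RNA, a ratio of 3.45 (1.64 to 7.90). Of the 21 genes loaded only in the L3 double mutant, 0 reached 50 reads in the embryo pair, where the highest count was 15 reads, 4 did with HRDE-1 and 1 in total RNA. Of all 2949 protein-coding genes compared at L3, 1132, 2403 and 2106 reached 50 reads in these pairs. The 21 were chosen for few control reads at L3, so a lower share elsewhere does not make them particular to L3.

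Of the 1492 higher genes, 556 had at least 50 reads in the embryo pair, and 49.3% of those were at least 2-fold higher and 3.06% lower in cde-1 there, against 27.4% and 21.5% of all genes compared in that pair and 29.2% and 17.5% of the 1132 compared in both pairs. With HRDE-1, 1191 reached 50 reads, of which 64.2% were higher and 2.85% lower, against 28% and 11.9% of all and 43.1% and 8.49% of the 2403 compared in both. In total RNA, a pair added after the data were seen, 33.8% of 1016 were higher and 0.295% lower, against 22.8% and 6.94% of all and 23.1% and 6.46% of the 2106 compared in both. Of the 458 lower genes, 126 were compared in embryos, with 64.3% lower and 0.794% higher, and 352 with HRDE-1, with 33.0% lower and 4.26% higher. Among the largest falls, C08F11.7 went from 4551 to 138 reads with HRDE-1 and F15D4.6 from 5450 to 522.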

How the data were processed

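Small RNA counts of 10 libraries were used, 2 of them the L3 NRDE-3 IPs. RNA was treated with alkaline phosphatase and polynucleotide kinase, so cloning did not depend on the 5′ phosphate. The authors kept reads of 18 to 30 nt, mapped them with Bowtie2 at default settings (version not given in the sources used here) to WS243 transcripts, and deposited raw counts per transcript for sense and antisense reads. The study's methods describe IPs from embryos and, for Argonaute sequencing, from synchronized worms, while the labels give L3 here.

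Counts were summed over transcripts per gene and class. The 3 features with no gene name, holding 0.00152% and 0.00110% of the reads, were left out. Symbols came from RefSeq by locus tag (44187 of 45510 genes), and positions and exon overlaps from Ensembl release 115 on WBcel235 (44852 genes). No sequence was printed because no genome was used. Rates are per 1000000 reads outside class rRNA; log2 ratios have 1 read added to each library and need 50 reads in either. Shares have Clopper-Pearson intervals and ratios exact conditional binomial intervals (Python 3.11.15, scipy 1.17.1). TMM came from edgeR 4.0.16 in R 4.3.3. The procedure was tested on simulated data.

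Named genes were, by rule, the 10 protein-coding genes with the most double mutant reads among those with at most 3 control reads, the 8 largest rises and 8 largest falls among genes with at least 200 reads, the 6 with the most antisense reads in each library, the 3 highest of each other class, members of described lists, and cid-1, eri-1 and nrde-3. Others were chosen after their values were seen: M163.13, smy-3, smy-7, smy-8, smy-10, sls-1.6, sls-1.12, sup-39, F40G12.13, F59C6.15, F19G12.14, F28F8.t1, T28B4.t1, K07C10.2, B0334.12, rpr-1, mrpr-1, srpr-2.1, srpr-2.2, F39D8.7, mtch-1, rps-25, hus-1 and the genes of the mirror set. The members, lists and tests were chosen with earlier results of these data known. The table of 26S rRNA tail sequences was not used, and a heat shock list is not described because its search pattern found only 4 genes.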

Additional observations from a re-analysis of the deposited data

Results flagged for a closer look

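Y79H2A.3 and let-765 went opposite ways in 2 pairs of libraries: both were at least 2-fold lower in the L3 double mutant, with 4110 and 1601 antisense reads for Y79H2A.3 and 3031 and 464 for let-765, and both were at least 2-fold higher in the HRDE-1 IP of cde-1, with log2 ratios of 1.33 (594 and 2400 reads) and 1.17 (357 and 1293 reads). Each pair has 1 library per genotype, and the difference was not tested.

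Sense reads, which the comparison does not use, were at least 5-fold higher in the double mutant at 53 genes outside rRNA with at least 200 reads in either library. Of these 41 were ncRNA genes, 35 of them opposite an snRNA, snoRNA, splice leader or tRNA exon. The number of genes that reached 200 sense reads and the number at least 5-fold lower are not given here. The 53 genes are therefore a list and not a share. At the lower read minimum used for the main comparison, 1.06% of 7838 protein-coding genes had sense reads at least 2-fold higher, and 6.3% at least 2-fold lower. The largest protein-coding counts among the 53 genes were at F43E2.6 (980 and 33585 sense reads), mtch-1 (1165 and 9535) and jmjd-3.3, a gene of the Jumonji family (76 and 1875). In embryos jmjd-3.3 had 237 and 11378 sense reads. The other protein-coding genes were T08B2.15 with 0 and 205 sense reads, F56C3.1 with 6 and 208, bath-20 with 17 and 308, unc-130 with 29 and 255, and C01G10.1 with 54 and 438. Among lincRNA genes linc-169 had 45 and 405 sense reads and linc-109 had 59 and 378. The structural genes smy-7 and sls-1.12 had 12 and 1609, and 5 and 232, sense reads.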

How the results depend on the processing

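No paired analysis was possible because each genotype has 1 library, and no library could be left out. All class ratios described here kept their direction under every denominator tried. Per 1000000 of all counted reads the ratios were 1.21 (protein-coding), 158 (snRNA), 8.78 (snoRNA), 22.0 (splice leader), 4.17 (tRNA) and 0.353 (transposon). With sense rRNA reads left out they were 1.34, 175, 9.72, 24.4, 4.62 and 0.391 in the same order, with reads outside rRNA less protein-coding sense reads 1.16, 151, 8.39, 21.0, 3.99 and 0.337, and with miRNA reads 1.19, 155, 8.63, 21.6, 4.104 and 0.347. The median log2 ratio of protein-coding genes, 1.02, moved to between 0.66 and 0.87 under these denominators, to 0.58 with TMM and to 0.65 with the median of ratios. Without the highest gene of its class the ratio was 1.43 for protein-coding genes, 10.0 for snoRNA and 0.417 for transposons. Without genes that have an exon on the opposite strand, it was 1.70 for protein-coding, 22.6 for snoRNA and 23.7 for splice leader genes. Chosen after seeing the data were the removal of opposite-strand overlaps from the classes, of K07C10.2 and B0334.12 (snoRNA, 45.3) and of sls-1.12 (splice leader, 70.4).

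Counts of genes followed the read minimum. With at least 10 reads, 3631 protein-coding genes were higher and 1300 lower, with at least 200 reads 322 and 142, and with no minimum 6125 and 2693. The median log2 ratio was 0.61, 1.19 and 0.33 under these 3 settings. Structural RNA genes that were higher numbered 389 with 10 reads, 101 with 200, and 125 without opposite-strand overlaps, and 1 was lower with all counted reads, with protein-coding sense reads left out, or with miRNA reads as denominator. Protein-coding genes loaded only in the double mutant numbered 544 with at least 10 reads, 1 with 200, and 2 with 0 control reads. The structural genes of that kind numbered 219, 31 and 10 under the same settings and 51 without overlaps. Depth limits the control side: 3 reads stand for 0.580 RPM there.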

Other observations

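The antisense strand of 2 miRNA genes, chosen after their values were seen, gained reads in the L3 double mutant. The mir-53 gene on chromosome IV had 4 control and 691 double mutant antisense reads, a ratio of 181 (70.5 to 667), beside 445 and 405 sense reads. The mir-63 gene on chromosome X had 0 and 323 antisense reads, at least 113-fold more against a floor of 3 control reads, beside 888 and 1324 sense reads. In the embryo and HRDE-1 pairs neither gene had more than 1 antisense read in any library.

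Protein-coding genes on the X chromosome were 9.45% of all those compared, 5.46% of the higher genes and 15.2% of the lower genes. The higher genes had a median of 57.7 sense RPM in the control and the lower genes 7.54 sense RPM. In the control HRDE-1 IP the median antisense level was 24.9 RPM for the higher genes and 86.1 RPM for the lower genes.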
